A study of Oryctolagus cuniculus with 36 samples.

Results

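The growing, non-embolized liver lobe of rabbits given obeticholic acid was compared with the same lobe of rabbits given vehicle. In portal vein embolization (PVE) the portal blood supply of some lobes is closed off; these lobes shrink, and the lobes that keep their supply enlarge. Obeticholic acid is a semisynthetic bile acid and a strong agonist of FXR, a nuclear receptor for bile acids. In mammalian liver, activated FXR is known to lower transcription of bile acid synthesis enzymes and to raise export of bile acids into bile, and bile acid signalling through FXR is known from rodents to take part in liver regrowth.

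All animals were wild-type rabbits (Oryctolagus cuniculus) subjected to PVE, pre-treated with either obeticholic acid or vehicle; age, sex, dose and time are not stated in the labels. The tissue was the caudal lobe, which the labels call non-embolized and hypertrophic, with 6 libraries after vehicle and 6 after obeticholic acid, 12 of the 36 libraries of the series. Nothing in the labels states that each library is a separate rabbit; the spread that the p-values measure is that between libraries and may be technical. A gene was included when its normalized count (reads divided by a size factor for the library) was at least 10 in at least 6 of the 12 libraries. Of 9419 Ensembl gene IDs listed, 8046 (85.4%) passed and 1373 did not, among them 82 listed at 0 in all 12 libraries. Just inside the limit lay 98 genes that reached 10 in exactly 6 libraries, with a median mean of 11.6 normalized counts. Just outside lay 115 genes that reached it in 5, with a median mean of 10.2. None of the 98 had passed through the libraries of a single treatment. Reads, here and below, are those recovered over the listed IDs, and reads of unlisted genes are not known. The genes that passed held at least 99.9% of these reads in every library. Their mean normalized counts had a median of 196.5, with quartiles at 62.8 and 593, and 156 genes averaged at least 10000.

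The deposited tables pair no gene ID with a name, and of the 38822 genes that RefSeq lists for assembly mOryCun1.1, 0 carry an Ensembl ID. Genes therefore appear under their IDs, with no function given. Lists of genes for bile acid handling, cell cycle or cell types could not be read, nor could the tissue be checked by hepatocyte markers.

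The libraries were first compared as wholes. Recovered reads, in M (megareads), ran from 14.04 to 27.3 M over the 12 libraries. The mean was 20.4 ± 4.38 M in the vehicle and 19.5 ± 4.67 M in the treated libraries (SD, n = 6; exact permutation test, two-sided, p = 0.738, adjusted over 4 library-wide values p = 0.749). The 10 most abundant genes took 35.1 ± 1.60% of the reads after vehicle and 35.8 ± 2.04% after obeticholic acid (exact permutation p = 0.5, adjusted p = 0.749). After every library had been thinned to 14040193 reads, 8940 ± 82.8 and 8924 ± 100.7 genes had a read (exact permutation p = 0.749, adjusted p = 0.749). None of these values differed by more than the spread between libraries.

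Vehicle 2 and 3 and obeticholic acid 1 and 2 stood apart from the other 8 libraries. They lay at 29.1 or above on the first principal component, which held 31.3% of the variance, while the others lay at −11.01 or below. Each treatment contributed 2 of the 4. After thinning, these 4 had reads in 9015 to 9065 genes and the other 8 in 8809 to 8942. With treatment held equal, 596 genes were at least 2-fold higher and 83 at least 2-fold lower in the 4 libraries. These counts are descriptions, since the libraries were picked from the same values. The second component, with 18.9% of the variance, followed the treatment. All 6 treated libraries lay at 6.07 or above on it and all 6 vehicle libraries at −8.76 or below.

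**Figure D1:**
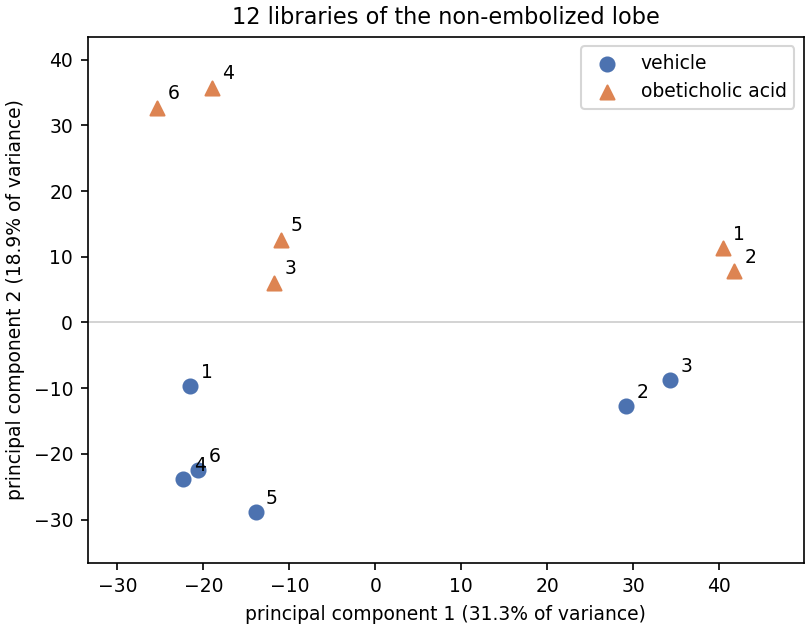
First against second principal component of log2(normalized count + 1) over 8046 genes, with 1 point per library and its replicate number; circles are vehicle and triangles obeticholic acid. Vehicle 2 and 3 and obeticholic acid 1 and 2 lie at 29.1 or above on the first component, and the treatments occupy opposite sides of 0 on the second.

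The comparison asked which transcripts obeticholic acid had changed in the growing lobe. Of 8046 genes tested 22 rose and 21 fell, 43 in all, or 0.534% (0.273% higher and 0.261% lower; limma-trend on log2(normalized count + 1), Benjamini-Hochberg adjusted p under 0.05). The rises ran from 0.50 to 3.47 on the log2 scale with a median of 1.00, and 11 reached 2-fold and 4 reached 4-fold. The falls ran from −0.48 to −2.71 with a median of −0.87, and 7 reached 2-fold and 1 reached 4-fold. Over all genes tested the median log2 fold change was 0.00 and the median size 0.21. A fold change on this scale understates the change of genes with low counts, and in whole tissue a change in the number of cells of a type and a change in RNA per cell cannot be told apart.

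The count of genes depended on which libraries, which scaling and which fit were used. Scaling to equal upper quartiles gave 29 higher and 43 lower genes. Scaling to equal totals gave 40 in all, of which 24 were among the 43. All 24 liver libraries in the fit gave 65, of which 29 were among the 43. A filter at 50 normalized counts, which left 6298 genes to test, gave 95 calls. Sample quality weights gave 191, no variance trend 24, and DESeq2 on the recovered reads 403. With the replicate number as a block 8 were called, all among the 43, while edgeR called 43, of which 37 were shared. Leaving out a control library gave 19 calls for vehicle 1, 192 for vehicle 3, 18 for vehicle 4, 21 for vehicle 5 and 22 for vehicle 6. Leaving out a treated library gave 27 calls for obeticholic acid 2, 81 for replicate 3, 16 for replicate 4 and 22 for each of replicates 5 and 6. Of the 43 genes, 15 were called in all 12 fits that left out 1 library, 8 of them rises and 7 falls, with sizes from 0.68 to 3.47. In 5 or fewer of those fits 25 genes were called.

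**Figure D2:**
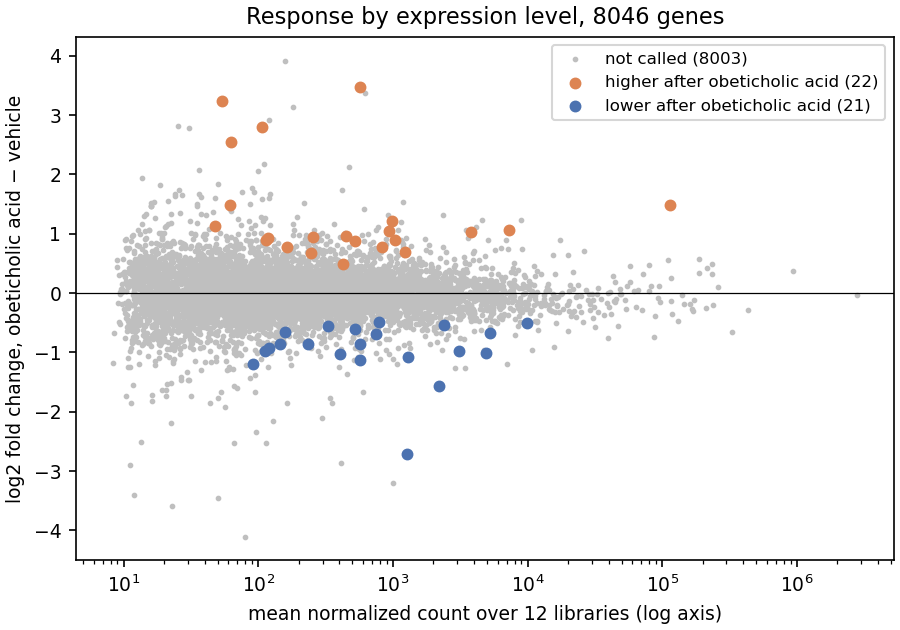
Log2 fold change, obeticholic acid minus vehicle, against the mean normalized count over 12 libraries (log axis), with 1 point per gene. The 22 called rises reach 3.47 and the 21 called falls −2.71, and many grey genes of similar size and lower level were not called.

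Calls lay mostly among well expressed genes. The 8046 genes were split by level into 3 classes of 2682. In the highest class (mean normalized count of 396 or more) 12 rose and 14 fell, or 0.969%. In the middle class 6 rose and 6 fell, or 0.447%, and in the lowest class, up to 94.6, 4 rose and 1 fell, or 0.186%. The median standard error of the fold change was 0.16 in the highest, 0.18 in the middle and 0.30 in the lowest class, so the test was least precise where calls were fewest. The called rises averaged between 47.4 and 114445 normalized counts (median 438) and the called falls between 91.5 and 9840 (median 566).

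The largest changes were thus not all called. Another 191 genes, 95 higher and 96 lower, changed by at least 2-fold on the fitted scale and did not pass. Their median standard error was 0.50, against 0.24 for the 18 called genes of that size, and 127 of the 191 averaged under 100 normalized counts. Of the 8003 genes not called, 6083 (76.0%) had a 95% interval for the fold change, unadjusted for the number of genes, that lay wholly inside 2-fold in either direction. In 221 genes the interval reached 4-fold. An unadjusted p under 0.05 was found for 1341 genes, 16.7% of those tested, and 1298 of them, 622 higher and 676 lower, did not pass after adjustment.

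Groups that did not overlap were also counted over all genes. All 6 treated libraries lay above all 6 vehicle libraries in 70 genes (0.87%) and below them in 75 (0.932%). Among the called genes 18 of the 22 rises and 18 of the 21 falls had no overlap, which the choice of these genes by the same values favours. In the treated libraries between 41 and 43 of the 43 called genes lay on the treated side of the midpoint between the group means. In the vehicle libraries between 0 and 6 did, and vehicle 3 was the library with 6. The midpoints and directions came from the libraries that chose the genes, so these counts were largely fixed by that choice.

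**Figure D3:**
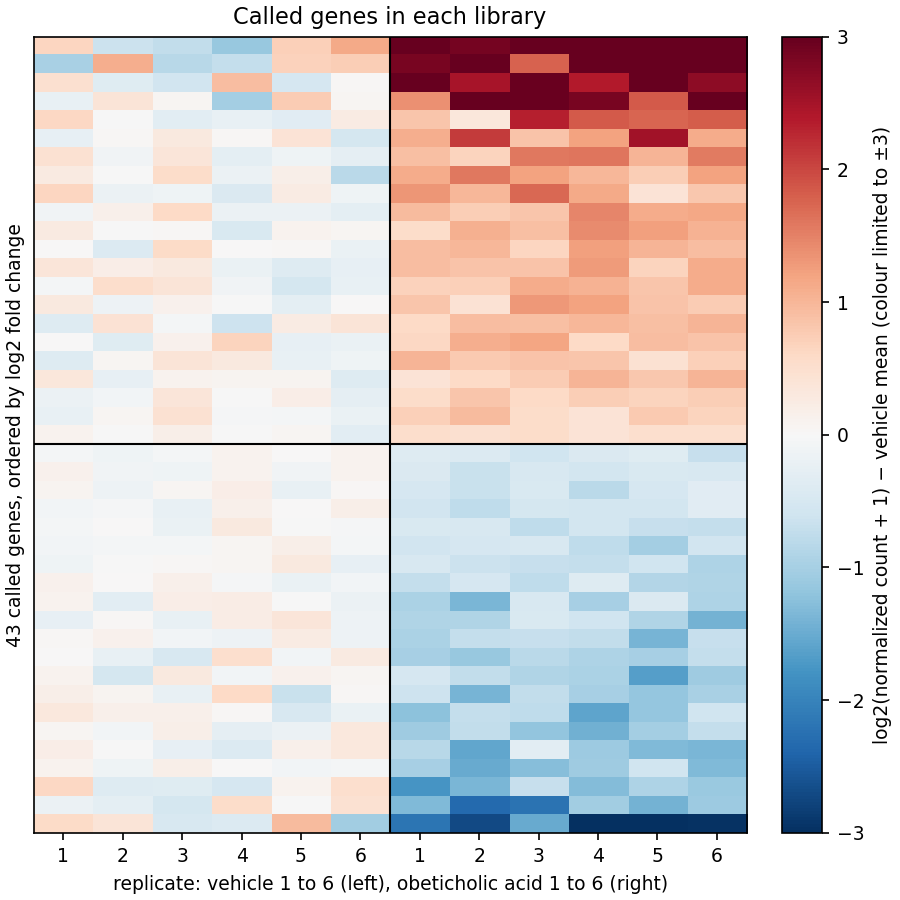
Each row is 1 of the 43 called genes, ordered by log2 fold change, and each column 1 library; the colour is log2(normalized count + 1) minus the vehicle mean of the gene, limited to ±3. The 22 rises are above the horizontal line and the 21 falls below it, and every treated library carries most of the pattern that chose the genes.

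The 4 genes described next were the 2 rises and the 2 falls of lowest p among called genes that averaged 50 normalized counts or more. ENSOCUG00000024104 was low after vehicle, at 16.7 normalized counts in the lowest library, a median of 22.7 and 49.1 in the highest. After obeticholic acid it ran from 135.8 through a median of 185.1 to 256.7. No treated library was as low as any control, with vehicle 4 highest among the controls and obeticholic acid 4 lowest among the treated. The mean rose from 27.4 ± 12.8 to 186.6 ± 45.8 (SD, n = 6; log2 fold change 2.80 ± 0.27 SE, limma adjusted p = 0.000423).

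ENSOCUG00000010723 ran from 39.9 normalized counts through a median of 98.1 to 197.9 after vehicle. After obeticholic acid it ran from 660 through a median of 954 to 1483. The groups were separated by a wide gap. Vehicle 2, 3 and 4 lay between 39.9 and 56.8, while vehicle 1, 5 and 6 lay between 139.4 and 197.9. The mean rose from 105.6 ± 64.6 to 1026 ± 289, a ratio of means of 9.72 (log2 fold change 3.47 ± 0.36 SE, limma adjusted p = 0.000644).

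ENSOCUG00000011145 had the tightest controls of the 4 genes, from 698.7 normalized counts through a median of 758.7 to 870 after vehicle. After obeticholic acid it ran from 267.2 through a median of 341.5 to 511. No library overlapped, and obeticholic acid 5 was the treated library nearest to the controls. The mean fell from 771.6 ± 65.2 to 358.8 ± 86.0 (log2 fold change −1.13 ± 0.14 SE, limma adjusted p = 0.00442).

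ENSOCUG00000012283 was the most abundant of the 4 after vehicle. It ran from 961.7 normalized counts through a median of 2037 to 3850 after vehicle, and from 147.3 through a median of 277.7 to 695.7 after obeticholic acid. The lowest control, vehicle 6, still lay above the highest treated library, obeticholic acid 3. The mean fell from 2211 ± 1102 to 341.5 ± 197.5 (log2 fold change −2.71 ± 0.38 SE, limma adjusted p = 0.00766), the largest fall among the called genes. With all 24 liver libraries in the fit its adjusted p was 0.0730. All 4 genes were called whichever of the 12 libraries was left out, with a limma adjusted p of at most 0.0285.

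**Figure D4:**
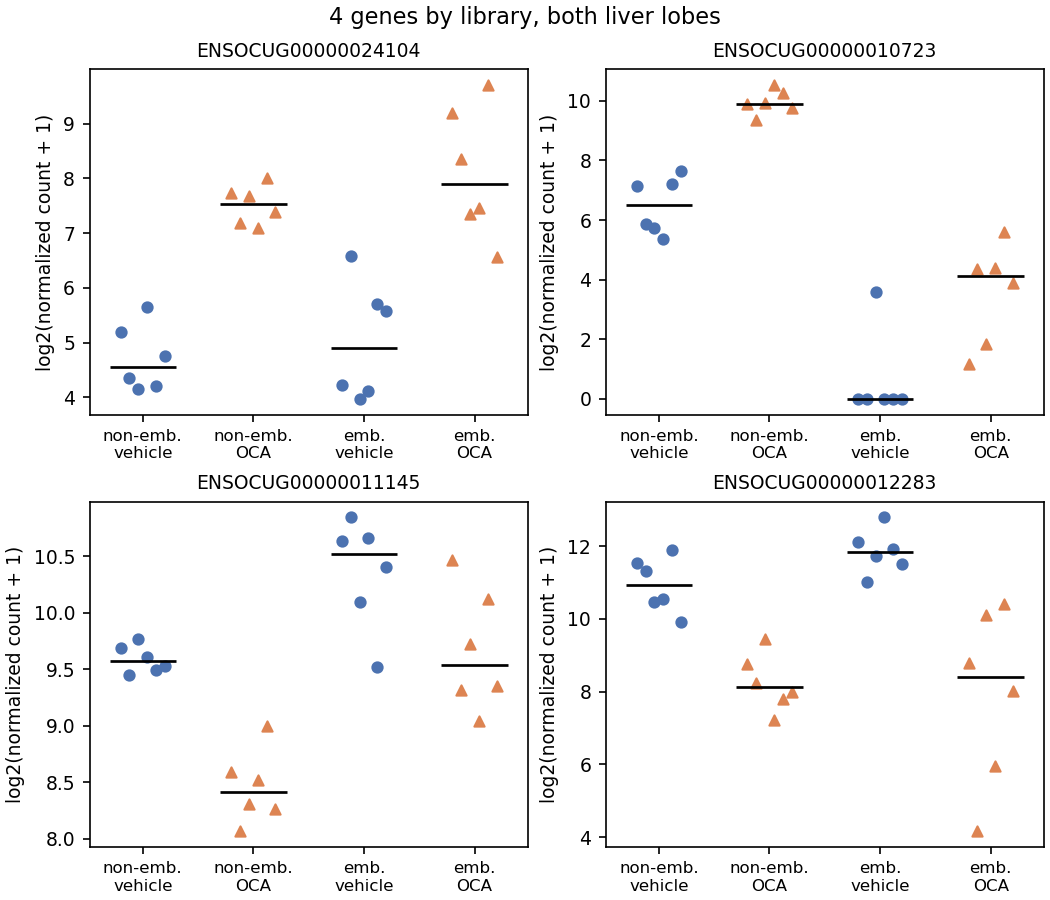
Log2(normalized count + 1) of 4 genes in each liver library; circles are vehicle, triangles obeticholic acid (OCA), points run from replicate 1 to 6 within a group, and bars are medians. In the non-embolized (non-emb.) lobe the groups do not overlap in any of the 4 genes, while in the embolized (emb.) lobe ENSOCUG00000010723 was listed at 0 in 5 of the 6 vehicle libraries.

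Reads of the called genes were summed to show how much of each library they held. The 22 rises took between 0.309 and 0.580% of the reads after vehicle (median 0.420%) and between 0.708 and 1.80% after obeticholic acid (median 1.19%). Most of this came from ENSOCUG00000029084, the most abundant of the rises, singled out after its values were seen. It held between 0.255 and 0.491% after vehicle and between 0.525 and 1.62% after obeticholic acid. Its normalized count was 57229 ± 15932 in the vehicle and 171660 ± 75390 in the treated libraries (SD, n = 6; log2 fold change 1.48 ± 0.31 SE, limma adjusted p = 0.0466). Its groups overlapped, since the lowest treated library was at 69911 and the highest control at 84989, and of the 12 fits without 1 library 3 called it. The other 21 rises held medians of 0.0825 and 0.159%. The 21 falls took between 0.246 and 0.295% after vehicle and between 0.122 and 0.184% after obeticholic acid. These shares describe genes chosen on the same libraries and are no separate test.

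The spread between libraries was described for each treatment. The median SD on the log2 scale over the 8046 genes was 0.32 after vehicle and 0.36 after obeticholic acid, and it was higher after obeticholic acid in 4858 genes (60.4%). For the 43 called genes the medians were 0.29 and 0.28, and the test that chose them on these libraries favours a small spread.

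Replicates 1 to 3 carry library numbers 13 to 18 and replicates 4 to 6 library numbers 19 to 24, and the response was examined within each run of numbers. All 43 called genes kept their direction in both. For the 36 without overlap between the groups this was fixed in advance, and for the others partly fixed by their choice. The median size of the 43 along that direction was 0.81 in replicates 1 to 3 and 1.03 in replicates 4 to 6. The same figure for the size of all genes was 0.18 and 0.30. Fitted alone, replicates 1 to 3 gave 1 call, which was not among the 43, and replicates 4 to 6 gave 390, of which 27 were. None of the 4 genes described above passed within replicates 1 to 3, where the limma adjusted p lay between 0.0914 and 0.280, although their fold changes there were 2.97, 3.48, −1.31 and −2.30 in the order given above. A term for the runs gave 91 higher and 97 lower genes, with all 43 among them.

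Without the 4 libraries that stood apart 129 genes were higher and 68 lower, and 33 of the 43 were among these 197. With a term for those 4 libraries 221 were higher and 216 lower, all 43 included. Within the 4 libraries alone 11 were called, of which 2 were among the 43. The 43 genes kept their direction in the 4 libraries and in the other 8. This was fixed in advance for the 36 genes whose groups did not overlap. The median size of the 43 along that direction was 0.74 in the 4 libraries and 1.03 in the other 8. The median size over all genes was 0.20 in the 4 libraries and 0.26 in the other 8, so it was lower there as well. The 4 genes described above did not share 1 order. The log2 fold change of ENSOCUG00000024104 was 3.21 within the 4 libraries and 2.59 without them, and that of ENSOCUG00000010723 was 3.83 and 3.29. ENSOCUG00000011145 was at −1.28 and −1.06, and ENSOCUG00000012283 at −2.40 and −2.87. Without the 4 libraries all 4 genes passed (limma adjusted p 0.0170 to 0.0246), while within them ENSOCUG00000011145 and ENSOCUG00000012283 did not (0.203 and 0.0845).

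Whether the response itself differed between the runs was tested as an interaction. A single gene passed, 0.0124% of those tested, with 597 (7.42%) at an unadjusted p under 0.05; with edgeR none passed and 632 had such a p. The gene, ENSOCUG00000014428, was singled out for passing. After vehicle it was at 25.9, 41.5 and 30.3 normalized counts in replicates 1 to 3 and at 603.6, 623 and 462 in replicates 4 to 6. After obeticholic acid it was at 430, 409.9 and 678 in replicates 1 to 3 and at 1285, 479.9 and 569 in replicates 4 to 6. The low libraries were thus vehicle 1, 2 and 3, and all others lay above 400. Vehicle 1, 2 and 3 were also the lowest controls elsewhere. In the embolized lobe they were at 32.8, 41.3 and 35.8 against 184 to 578 in vehicle 4 to 6, and in the ileum at 226, 162 and 198 against 666 to 944. The response in replicates 4 to 6 minus that in replicates 1 to 3 was −3.57 ± 0.48 SE on the log2 scale, a smaller rise (limma adjusted p = 0.0496). Over all 12 libraries its log2 fold change was 2.12 ± 0.81 SE and did not pass (limma adjusted p = 0.198).

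The genes called in the growing lobe were then followed in the embolized, cranial lobe, whose 12 libraries were outside the fit that chose them. Fitted alone, that lobe gave no call among 8410 genes (limma-trend, lowest adjusted p 0.0949), with 776 (9.23%) at an unadjusted p under 0.05; edgeR called 0 and DESeq2 61. Of the 43 genes 41 passed the filter on low values there, 20 rises and 21 falls. All 20 rises and 20 of the 21 falls had the same sign as in the growing lobe, 97.6% of the 41, against 58.1% of the 7927 genes tested in both lobes. Of the 191 uncalled genes of at least 2-fold, 179 were tested in the embolized lobe, and 155 of these had the same sign. Agreement in sign was thus frequent among large changes that were not called as well. With the same sign and an unadjusted p under 0.05 there were 11 rises and 11 falls, 53.7% of the 41, against 7.38% of all genes, and no called gene had such a p with the opposite sign. The rises had a median of 0.38 and ran from 0.10 to 3.08, and the falls had a median of −0.46 and ran from −3.94 to 0.01. In 35 of the 41 genes the change was smaller than in the growing lobe, the lobe whose values had chosen them. When the genes were instead those called without the 4 libraries that stood apart, 194 of the 197 were tested in the embolized lobe. Of these 154 (79.4%) had the same sign, and 42 (21.6%) had it with an unadjusted p under 0.05, against 58.1% and 7.23% of all genes in that fit. Libraries of the lobes that share a number may come from 1 rabbit, so the lobes may not be independent.

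**Figure D5:**
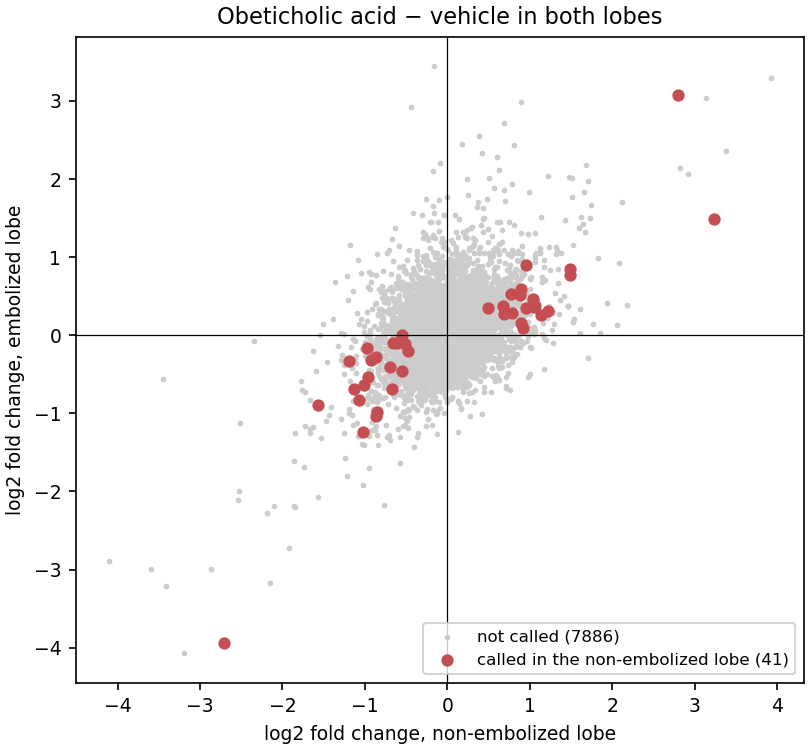
Log2 fold change, obeticholic acid minus vehicle, in the embolized against the non-embolized lobe, with 1 point per gene tested in both. Of the 41 called genes, in red, 40 lie on the same side of 0 in both lobes, most of them closer to 0 on the vertical than on the horizontal axis.

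Among the 4 genes, ENSOCUG00000024104 ran from 14.7 through a median of 32.1 to 94.4 normalized counts in the embolized lobe after vehicle. After obeticholic acid it ran from 93.7 through a median of 250.0 to 837, so the groups overlapped by 1 library each, the lowest treated and the highest control. ENSOCUG00000012283 was between 2054 and 7131 after vehicle and between 16.96 and 1373 after obeticholic acid, without overlap. ENSOCUG00000011145 was between 732.3 and 1840 after vehicle and between 525.3 and 1415 after obeticholic acid, with overlap. Their log2 fold changes there were 3.08 ± 0.57 for ENSOCUG00000024104, −3.94 ± 0.87 for ENSOCUG00000012283 and −0.69 ± 0.27 for ENSOCUG00000011145 (SE, limma adjusted p 0.159, 0.259 and 0.505). ENSOCUG00000010723 failed the filter in the embolized lobe, where it was listed at 0 in 5 vehicle libraries and at 11.01 in the other, and ran from 1.27 to 47.6 after obeticholic acid.

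The difference of the response between the lobes was tested over the 24 liver libraries. None passed (limma-trend; the lowest adjusted p was 0.559), with 596 of 8046 at an unadjusted p under 0.05, or 7.41%; edgeR also called 0, with 529. As embolized minus non-embolized lobe, the response of ENSOCUG00000024104 differed by 0.28 ± 0.67 SE on the log2 scale, a larger rise. That of ENSOCUG00000011145 differed by 0.44 ± 0.31, a smaller fall, and that of ENSOCUG00000012283 by −1.23 ± 1.02, a larger fall. The value for ENSOCUG00000010723 was −0.53 ± 0.93. This gene failed the filter in the embolized lobe, with a median of 0 after vehicle, so its value rests on the 1 added to each count. The standard errors of these differences are large, and a p that misses the threshold does not show that the lobes responded alike. They come from a fit that took the lobes as independent, although libraries that share a number may come from the same rabbit.

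In the terminal ileum of the same study, where the table was normalized separately, none passed (limma-trend; the lowest adjusted p was 0.234, with 688 of 9010 genes, 7.64%, at an unadjusted p under 0.05). Of the 43 genes 36 passed the filter there, and 18 of the 36 had the same sign as in the growing lobe, against 49.1% of all genes tested in both. The rises had a median of 0.17 and the falls of 0.22. ENSOCUG00000024104 and ENSOCUG00000012283 were at 2.24 normalized counts or below in every ileum library. ENSOCUG00000010723 was abundant in ileum, from 108.3 through a median of 735.9 to 929 after vehicle and from 346.8 through a median of 826 to 1274 after obeticholic acid, with overlap (log2 fold change 0.40 ± 0.52 SE, limma adjusted p = 0.806). ENSOCUG00000011145 overlapped as well, with medians of 206.9 and 251.9 (log2 fold change −0.05 ± 0.48 SE, limma adjusted p = 0.975).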

How the data were processed

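Total RNA was sequenced from strand-specific paired-end libraries, per the labels' protocols, and the submitters' processing notes name STAR, RSEM and DESeq2; versions, genome build and annotation: not given in the sources used here. What the authors deposited is a normalized signal: reads per gene over a size factor of the library, with liver and ileum in separate tables. All values (100%) were whole multiples of the smallest step of their library within a tolerance of 0.01, so whole reads could be recovered; the 30 pairs of libraries within groups had a chi-square of at least 43.0 per degree of freedom, so none agreed within sampling noise.

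The test was limma-trend (limma 3.58.1, R 4.3.3) on log2(normalized count + 1) of the 12 libraries of a lobe, with a gene called where its p, adjusted by Benjamini-Hochberg over all genes tested, was under 0.05, and for differences of responses an interaction term. It was tested on simulated data. Alternatives were edgeR 4.0.16 and DESeq2 1.42.0 on the recovered reads, other scalings, pseudocounts and filters, sample weights, a replicate block, run terms and fits without each library. Genes named were the 2 rises and 2 falls of lowest p with a mean of at least 50; the rule's version for gene symbols and its lists could not be used, since 0 of 9419 IDs matched. The members, the tests and the rules were chosen with earlier results of these data known. The fits on the 4 libraries that stood apart were chosen after seeing the data.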

Additional observations from a re-analysis of the deposited data

Results flagged for a closer look

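In 38 groups of 6 libraries (the 4 genes described by library and ENSOCUG00000014428 in 6 groups each, and 4 library-wide values in 2 groups), the highest and lowest library were compared with their neighbours. Chance flags about 1 in 20 groups, and 3 were flagged. ENSOCUG00000010723 was at 11.01 normalized counts in embolized vehicle 3, with the other 5 libraries of the group listed at 0. ENSOCUG00000011145 was at 755 in ileum obeticholic acid 1, against a group median of 251.9. ENSOCUG00000014428 was at 1285 in non-embolized obeticholic acid 4, against a group median of 524.7. The response of ENSOCUG00000014428 to obeticholic acid in the non-embolized lobe also differed between the runs of library numbers, by −3.57 on the log2 scale for replicates 4 to 6 minus replicates 1 to 3 (interaction in limma-trend, adjusted p = 0.0496). Vehicle 1 to 3 were its lowest controls in the embolized lobe and the ileum too.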

How the results depend on the processing

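The 43 calls of the non-embolized lobe became 65 with all 24 liver libraries in the fit, 72 with equal upper quartiles, 95 with a filter at 50 normalized counts, 24 without a variance trend, 191 with sample quality weights, 403 with DESeq2, 188 with a term for the runs of replicates, 1 within replicates 1 to 3 and 390 within replicates 4 to 6. The fits chosen after seeing the data gave 197 without the 4 libraries that stood apart, 437 with a term for them and 11 within them alone. Leaving out 1 library gave 16 to 192 calls. Equal totals gave 40, of which 24 were among the 43, and edgeR 43, of which 37 were. Pseudocounts of 0.5 and 5 gave 43 and 48, with all 43 among each. No filter, with 9337 genes tested, gave 29, of which 28 were among the 43. A fit with the replicate number as a block (replicate block) gave 8 calls, all among the 43. The numbers are not known to pair vehicle with obeticholic acid libraries: 3 of 6 same-numbered correlations of deviations exceeded 0.1 (−0.34 to 0.52), and 2 of 6 vehicle libraries correlated best with their own number. In the embolized lobe the count of 0 became 17 with all 24 liver libraries, 1 without a variance trend, 52 with sample quality weights, 61 with DESeq2 and 1 within replicates 1 to 3; it was 0 to 14 when 1 library was left out. The replicate block left it at 0. Between the lobes same-numbered libraries correlated over 0.1 in 6 of 6 vehicle pairs (0.16 to 0.56) and in 5 of 6 obeticholic acid pairs, so pairing of the lobes is not settled. With that replicate block 0 genes differed in response between lobes, as in all other settings tried for that difference, and 921 in place of 596 had an unadjusted p under 0.05. The single gene whose response differed between runs became 0 with a pseudocount of 5, 0 with edgeR and 12 with sample quality weights, and 0 to 5 when 1 library was left out.

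The 4 genes described by library were followed in 30 alternative fits, 120 fold changes in all, and no sign turned. Their groups did not overlap in the non-embolized lobe, so fits on part of these libraries could not turn it. In 7 of the 120 the call was lost. These were all 4 genes within replicates 1 to 3 and ENSOCUG00000012283 with all 24 liver libraries. The others were ENSOCUG00000012283 and ENSOCUG00000011145 within the 4 libraries that stood apart. The cause of these changes was not tested. Of the 4 library-wide differences, obeticholic acid minus vehicle, the share of the 10 most abundant genes kept its sign whichever library was left out and the other 3 turned sign; none passed the exact permutation test. They ran from −2.21 to 0.536 M for recovered reads, from −0.171 to 1.26 percentage points for the share of the 100 most abundant genes (0.448 with all 12 libraries), and from −44.5 to 8.23 for genes with a read after thinning. Precision was lowest for low genes, with a median standard error of 0.30 on the log2 scale in the lowest class by level; the part of depth in it was not tested.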
